A study of Mus musculus with 15 samples.

Results

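The collagen genes were taken as all rows of the count table whose gene symbol is Col, a type number, the letter a and a chain number. The rule found 44 members among 44674 genes, and all 44 were among the 19401 genes with enough counts to be tested. They were placed in 4 classes: 11 fibrillar genes, 8 basement membrane genes, 9 FACIT genes and 16 others.

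A collagen is a protein of 3 chains wound into a triple helix, in which glycine recurs at a spacing of 3 residues. Fibrillar collagens (types I, II, III, V, XI, XXIV and XXVII) assemble into the banded fibres of connective tissue. Type IV collagen forms the sheet-like network of the basement membrane on which endothelium rests, and types XV and XVIII are basement membrane proteoglycans. FACIT collagens attach to the surface of fibres or lie beside them. The other members include type VI, which forms beaded filaments around cells, the short-chain types VIII and X, type VII of anchoring fibrils, and membrane-spanning types such as XIII, XVII, XXIII and XXV.

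The libraries were made from mouse cells grown in culture and sorted as CD45- tdTomato+. BMECs (bone marrow endothelial cells) came from adult Tie2-CreERT2;Rosa26-tdTomato mice, in which the Tie2 promoter, active mainly in endothelium, drives the tamoxifen-inducible Cre that switches on tdTomato. Whole bone marrow was grown in endothelial medium on dishes coated with type I collagen or gelatin, and the adherent culture before passage is P0. The question asked of it was how BMECs with and without endomucin (Emcn), a sialomucin of venous and sinusoidal endothelium, differ. The conditions were P0 Emcn+ BMECs, P0 Emcn- BMECs, Emcn- cells of lung cultures (Lung), Emcn- BMECs of passages P1, P2, P3 and P4, and BM MSC. P4 had 1 library and each of the other 7 conditions had 2. The BM MSC (bone marrow mesenchymal stem or stromal cells) came from Osx-Cre;Rosa26-tdTomato mice, in which the promoter of an osteoblast lineage factor drives Cre, and were grown in a mesenchymal medium, so that cell type, mouse line and medium cannot be told apart. The labels give the genotype of all samples as WT. Dishes usually held the marrow of 1 mouse, and which dish each library came from was not given, so p-values measure the spread between these libraries.

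The labels divide the libraries into 4 batches. Batches a and d each hold 1 library of P0 Emcn+, P0 Emcn- and Lung. Batch b holds replicate 1 of P1 to P4, and batch c holds replicate 2 of P1 to P3 with both BM MSC libraries. P0 and lung libraries thus share no batch with passaged or BM MSC libraries, and across that divide batch and condition cannot be told apart. The methods of the study name fewer batches than the labels do, run on different sequencers, and which labelled batch was run on which is not given in the sources used here. Batches are those of the labels throughout.

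Library totals ran from 9914620 to 39718807 counts, so that 3 counts, the limit that a count of 0 allows, equal 0.0755 to 0.303 CPM (counts scaled to a library total of 1000000). The labelled cell types were checked against marker lists. The summed level of 8 endothelial markers (Cdh5, Pecam1, Kdr, Tek, Tie1, Emcn, Cldn5 and Erg) was 9731 to 11694 CPM in P0 Emcn+ cells, but 67.1 to 251 CPM in P0 Emcn- cells, 145 to 554 CPM in Lung and 43.1 to 69.0 CPM in P1 to P4. The sum of 7 fibroblast markers (Pdgfra, Pdgfrb, Thy1, Dcn, Lum, Dpt and Pi16) was 45.8 to 92.6 CPM in P0 Emcn+ cells and 1938 to 4871 CPM in every Emcn- group. The Emcn- libraries labelled BMEC thus had low levels of the defining endothelial markers. In bulk RNA, fewer cells of a type and less RNA per cell cannot be told apart.

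The repeat that makes a chain a collagen can be read in the coding sequence as a glycine codon, which begins with GG, at a spacing of 3 codons. Runs of at least 10 such triplets were counted in the longest complete coding sequence of each gene (GENCODE M21, GRCm38). The longest run spanned 216 to 344 triplets in the 11 fibrillar genes and 30 to 66 in the 8 basement membrane genes. It spanned 32 to 113 triplets in FACIT genes and 23 to 87 in the others. The 3 stretches of 72 bases, with the glycine codons in capitals, show an unbroken fibrillar repeat (Col1a1, coding bases 502 to 573, run of 338 triplets), an interruption of the type IV repeat (Col4a1, coding bases 451 to 522, after a run of 40) and the short repeat of a FACIT (Col12a1, coding bases 8413 to 8484, run of 32).
Col1a1: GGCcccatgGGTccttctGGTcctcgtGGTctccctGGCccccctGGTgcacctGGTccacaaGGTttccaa
Col4a1: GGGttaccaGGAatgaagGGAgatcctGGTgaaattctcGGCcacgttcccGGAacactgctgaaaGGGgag
Col12a1: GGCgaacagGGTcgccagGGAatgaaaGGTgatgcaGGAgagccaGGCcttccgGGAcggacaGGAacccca

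RefSeq promoter windows (GRCm38.p6) were available for 35 of the 44 genes. The 250 bases before the start were searched on both strands for 3 short motifs. The 35 genes had 38 windows. The letters CCAAT were found in 13 of the 38 windows (13 genes) and in 33.8% of all 32851 windows. The letters TATAAA were found in 5 of the 38 windows (5 genes) and in 12.4% of all windows. The letters GGGCGG were found in 22 of the 38 windows (21 genes) and in 32.7% of all windows. The windows of Col1a2, Col3a1 and Col5a1 are printed because these fibrillar genes were low together in P0 Emcn+ cells, with the motifs in capitals. Starts here are those of RefSeq. For Col1a2 that start lies inside the GENCODE gene interval given below, so its window is within that interval. The first base of CCAAT lies 109 bases before the RefSeq start in Col1a2, which also holds GGGCGG at 205 and 188 bases, and TATAAA lies 117 bases before the start in Col3a1. Col5a1 holds GGGCGG at 205 bases on the opposite strand and at 73 bases on its own strand. The motifs in these windows do not overlap each other.
Col1a2, chr6:4505368-4505617, plus strand: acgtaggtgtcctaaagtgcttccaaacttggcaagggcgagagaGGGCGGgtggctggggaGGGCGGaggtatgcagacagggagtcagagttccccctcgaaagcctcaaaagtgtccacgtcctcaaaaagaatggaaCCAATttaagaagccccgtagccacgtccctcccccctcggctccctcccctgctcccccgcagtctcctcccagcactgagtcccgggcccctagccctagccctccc
Col3a1, chr1:45311288-45311537, plus strand: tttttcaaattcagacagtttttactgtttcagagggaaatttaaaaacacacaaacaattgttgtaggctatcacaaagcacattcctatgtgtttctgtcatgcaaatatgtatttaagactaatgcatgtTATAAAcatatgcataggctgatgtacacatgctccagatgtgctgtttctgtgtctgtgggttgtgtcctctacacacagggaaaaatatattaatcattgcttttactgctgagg
Col5a1, chr2:27886175-27886424, plus strand: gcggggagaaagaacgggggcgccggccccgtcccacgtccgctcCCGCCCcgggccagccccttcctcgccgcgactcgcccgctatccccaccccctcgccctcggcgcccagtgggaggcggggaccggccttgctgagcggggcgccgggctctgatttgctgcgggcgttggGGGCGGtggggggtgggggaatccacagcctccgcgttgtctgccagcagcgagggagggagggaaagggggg

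Type IV chains are encoded head to head. Col4a1 (chr8:11198423-11312826, minus strand) and Col4a2 (chr8:11312805-11449287, plus strand) share the 22 bases at chr8:11312805-11312826, given here on the plus strand.
Col4a1 and Col4a2: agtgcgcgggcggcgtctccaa

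Exons of 13 of the 44 genes overlap an exon of another gene, 3 on the same strand and 10 on the other, and whether the counting used strand was not given in the sources used here. Among the genes described below these are Col3a1, Col5a1, Col4a1, Col4a2, Col4a3, Col9a3, Col15a1, Col22a1, Col6a4, Col6a6, Col7a1 and Col10a1 (with Nt5dc1), whose counts could hold reads of the neighbour.

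The make-up of the collagen counts separated P0 Emcn+ BMECs from all other conditions. Basement membrane genes held 94.8% and 92.5% of the collagen counts in the P0 Emcn+ libraries, and Col4a1 with Col4a2 alone held 89.0% and 84.4%. In P0 Emcn- BMECs the fibrillar genes held 55.5% and 53.5%, and the basement membrane genes 24.9% and 26.8%. Lung libraries had 56.6% and 53.0% fibrillar and 24.6% and 27.1% basement membrane.

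In the passaged Emcn- BMECs no class held a majority. Fibrillar genes held 29.9% to 41.8% of the collagen counts in P1 to P4, basement membrane genes 26.9% to 33.4% and the others 24.7% to 29.5%. The FACIT share was 3.45% and 3.82% in the P1 libraries, 6.35% and 6.90% in those of P2, 8.85% and 10.1% in those of P3, and 8.56% in P4. BM MSC had the highest fibrillar shares, 62.9% and 59.6%, and the highest FACIT shares, 22.2% and 16.6%, with 2.58% and 8.40% from basement membrane genes.

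Summed over the 44 genes, collagen took 13969 and 12546 CPM in P0 Emcn+ cells, which is 1.4% and 1.25% of all counts. It took 38072 and 27542 CPM in P0 Emcn- cells, 22556 and 26264 CPM in Lung, and 38471 and 23127 CPM in BM MSC. Passaged BMECs had 9670 to 10344 CPM at P1 and P2, 12274 and 12673 CPM at P3 and 15332 CPM at P4. The P0 Emcn-, Lung and BM MSC libraries all lay above every P0 Emcn+ and passaged library. These shares are of undivided counts and so weight long genes more. When counts were divided by exon length before summing, the order of the classes changed in passaged cells. The mean fibrillar share then was 32.3%, 27.8%, 27.3% and 26.6% for P1 to P4, in place of 39.7%, 34.3%, 32.3% and 31.8%, and lay below the basement membrane share of 34.2%, 34.2%, 34.3% and 34.0%. The share of the other collagens was 30.7%, 33.5%, 32.3% and 34.2% on that scale, in place of 25.7%, 27.9%, 28.1% and 29.5%, and so lay above the fibrillar share from P2 on and close to the basement membrane share in P4. The mean FACIT share was lower on that scale, at 6.00% in place of 9.48% for P3 and 13% in place of 19.4% for BM MSC, but still highest in BM MSC.

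**Figure D1:**
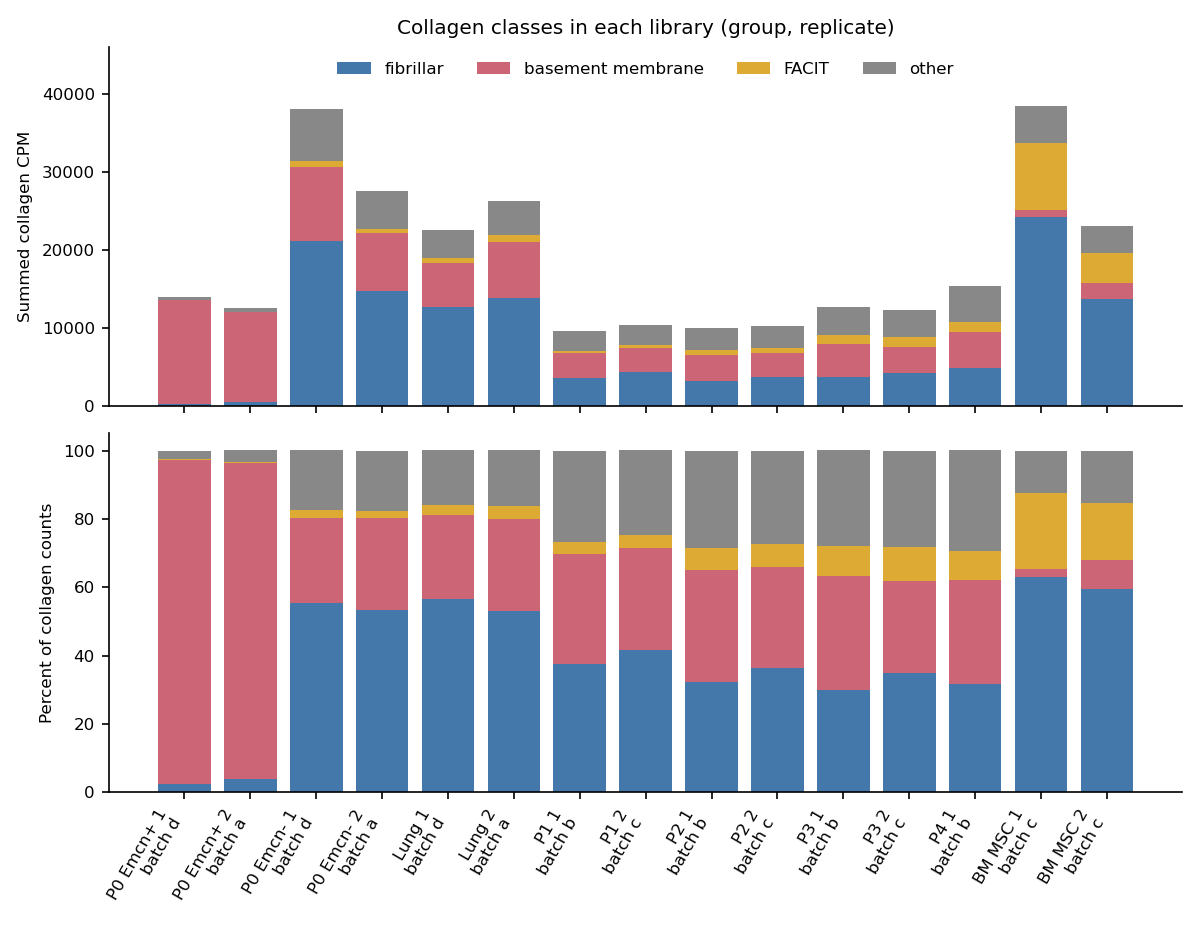
Summed collagen CPM (upper panel) and percent of collagen counts (lower panel) in each of the 15 libraries, stacked by class, with the batch under each library. Basement membrane genes fill 92.5% to 94.8% of the P0 Emcn+ bars, and FACIT genes are widest in BM MSC at 16.6% and 22.2%.

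Of the 44 genes, 22 reached 100 CPM in at least 1 library, 28 reached 10 CPM, and 7 stayed under 1 CPM in every library (Col4a3, Col9a1, Col9a2, Col13a1, Col17a1, Col19a1 and Col25a1). A count was recorded in every library for 30 genes.

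**Figure D2:**
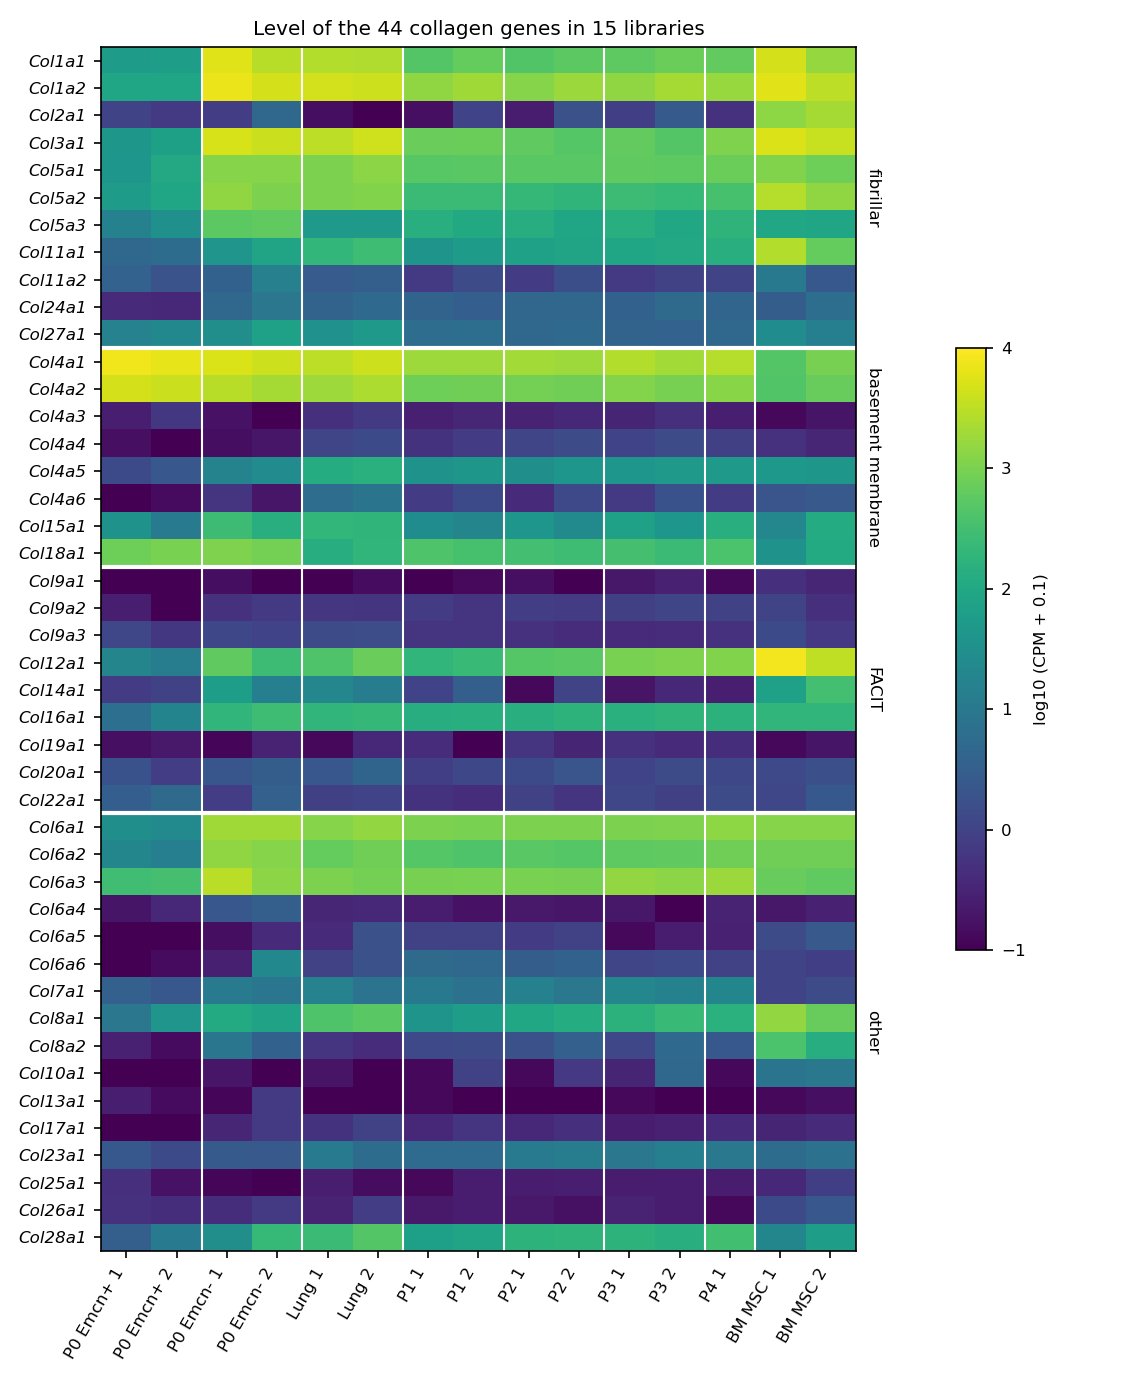
Level of each of the 44 collagen genes (rows, by class) in the 15 libraries (columns, by condition), coloured by log10 of CPM plus 0.1. Col4a1 and Col4a2 are high in all P0 and lung libraries, and Col2a1, Col11a1, Col12a1, Col8a1 and Col8a2 are brightest in the BM MSC columns.

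Levels of single genes were compared with each other per kb of exon. On that scale Col4a1 was the most abundant chain in both P0 Emcn+ libraries, at 1040.5 and 886 CPM per kb, followed by Col4a2 at 705 and 601 and Col18a1 at 110 and 142 CPM per kb. No other chain exceeded 28.0 CPM per kb there, the level of Col6a3 in replicate 2. In P0 Emcn- the leading chains were Col1a1, Col4a1, Col1a2, Col3a1 and Col6a1 at 385 to 881 CPM per kb. Col4a1 and Col6a1 led in every passaged library, at 245 to 368 and 222 to 317 CPM per kb. Exon length counts all annotated exons. Per kb of coding sequence Col1a2 was ahead of Col1a1 in all 15 libraries, and it led the replicate 2 libraries of P1, P2 and P3 at 437 to 504 CPM per kb, ahead of Col4a1, so these orders depend on the length used.

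The comparison of P0 Emcn+ with P0 Emcn- BMECs asked how the endomucin sort divides the culture. Collagen genes were lower in Emcn+ cells: 24 of 44 were called lower and 0 higher, where called means a Benjamini-Hochberg adjusted p under 0.05 in edgeR's quasi-likelihood test over all genes and an absolute log2 fold change above 1.5. Over all 19401 genes tested 19.2% were called, 11.4% lower and 7.79% higher. With the replicate number as a block, 25 were called lower and 1 higher (Col25a1, log2 fold change 3.73, under 1 CPM in every library). Without 1 library, 1 gene was called higher in 3 of 4 cases: Col4a3 without P0 Emcn+ replicate 1, Col25a1 without P0 Emcn+ replicate 2 and Col22a1 without P0 Emcn- replicate 2. The median log2 fold change of the collagen genes was -3.41 (-2.54 with genes listed at 0 in a group set to the limit of 3 counts), against -0.06 for all genes. Called lower were 8 of 11 fibrillar genes, 3 of 8 basement membrane genes, 3 of 9 FACIT genes and 10 of 16 others.

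Type I collagen, the main fibre of bone and tendon, is made of chains from Col1a1 (chr11:94936224-94953042) and Col1a2 (chr6:4504814-4541544). Col1a1 stood at 57.4 and 64.3 CPM in P0 Emcn+ cells and at 5783 and 2891 CPM in P0 Emcn- cells. The groups did not overlap, and within batches Emcn- was 101-fold higher in batch d and 44.9-fold in batch a. The log2 fold change was -6.12 (SE 0.58, adjusted p = 3.6e-05).

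Col1a2 followed its partner, with 90.8 and 88.7 CPM in P0 Emcn+ cells and 7053 and 4779 CPM in P0 Emcn- cells. Its log2 fold change was -6.01 (SE 0.43, adjusted p = 6.4e-06). Col3a1 (chr1:45311538-45349706), the type III chain of elastic tissues and vessel walls, had 44.3 and 70.7 CPM against 4937 and 4005 CPM, a log2 fold change of -6.25 (SE 0.39, adjusted p = 3.19e-06). For both genes every Emcn- library lay more than 50-fold above the Emcn+ library of its batch, at 53.9-fold and 77.7-fold for Col1a2 and 56.6-fold and 111-fold for Col3a1.

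Type V collagen is incorporated into type I fibres and limits their diameter. Its chain Col5a1 (chr2:27886425-28039514) had 41.9 and 102 CPM in P0 Emcn+ cells against 1241 and 1230 CPM in P0 Emcn- cells (log2 fold change -4.07, SE 0.39, adjusted p = 3.6e-05). Col5a2 and Col5a3 were lower by a similar amount, with log2 fold changes of -4.10 and -4.55. The other called fibrillar genes were Col11a1 (log2 fold change -3.57) and Col24a1 (-4.53). Col2a1, Col11a2 and Col27a1 were not called, with log2 fold changes of -1.47, -1.71 and -1.39.

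The 2 major type IV chains had higher levels in P0 Emcn+, though neither was called. Col4a1 had 7766 and 6615 CPM in P0 Emcn+ cells and 5281 and 4237 CPM in P0 Emcn- cells, so that the groups did not overlap. The ratio was 1.47 in batch d and 1.56 in batch a, and the log2 fold change of 0.63 (SE 0.33, adjusted p = 0.173) did not pass. Col4a2 had 4664 and 3977 CPM against 2865 and 2075 CPM, and its log2 fold change of 0.84 (SE 0.27, adjusted p = 0.0346) lay under the limit of 1.5. Col18a1, the source of endostatin, overlapped between groups, with 774 and 995 CPM in Emcn+ and 1058 and 919 CPM in Emcn- (log2 fold change -0.13, adjusted p = 0.874).

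Among the 4 minor type IV chains, which form other networks, 2 were called lower and Col4a3 (log2 fold change 2.55) and Col4a4 (-0.77) were not called. Col4a5 had 1.20 and 2.13 CPM in P0 Emcn+ cells against 17.1 and 25.2 CPM in P0 Emcn- cells (log2 fold change -3.64, SE 0.29, adjusted p = 1.23e-05). Col4a6 had 1 count in the Emcn+ libraries together and 19 in the Emcn- libraries, a ratio of 22.0 with an exact 95% counting interval of 3.49 to 913. Of the 19 counts 18 were in replicate 1, and the log2 fold change ranged from -6.26 to -2.19 over the settings. Col15a1 had 36.8 and 11.2 CPM against 263 and 135 CPM, a log2 fold change of -3.02 (adjusted p = 0.0147).

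Among FACIT genes, Col12a1 (chr9:79598991-79718831), whose product binds type I fibres, had 18.8 and 12.3 CPM in P0 Emcn+ cells and 597 and 269 CPM in P0 Emcn- cells (log2 fold change -4.77, SE 0.56, adjusted p = 1.36e-04). Col16a1 had 6.69 and 18.2 CPM against 199 and 280 CPM (log2 fold change -4.24, SE 0.40, adjusted p = 3.21e-05). Col14a1, a relative of Col12a1, had 0.665 and 0.889 CPM against 63.7 and 14.6 CPM, and its log2 fold change was -5.64. The remaining 6 FACIT genes were not called.

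Type VI collagen is a trimer of chains 1 and 2 with chain 3 or a relative of it, and here the 3 main chains did not move by the same amount. Col6a1 (chr10:76708792-76726168) had 30.9 and 24.8 CPM in P0 Emcn+ cells against 1935 and 1939 CPM in P0 Emcn- cells (log2 fold change -6.09, SE 0.22, adjusted p = 2.1e-07). Col6a2 had 19.7 and 14.5 CPM against 1466 and 1231 CPM (log2 fold change -6.27, SE 0.25, adjusted p = 2.29e-07). Col6a3 (chr1:90765923-90843971) stayed at 294 and 335 CPM in Emcn+ against 3040 and 1324 CPM in Emcn-, a log2 fold change of -2.76 (SE 0.34, adjusted p = 1.72e-04).

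The Emcn- libraries thus exceeded the Emcn+ library of their batch 62.7-fold and 78.3-fold for Col6a1 but 10.3-fold and 3.95-fold for Col6a3. Per kb of exon the ratio of Col6a3 to Col6a1 was 3.49 and 4.96 in P0 Emcn+, and between 0.177 and 0.575 in the other 13 libraries. A test of this difference between the chains was not made.

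Of the remaining 13 genes in the class of others, 7 more were called lower in P0 Emcn+: Col6a4, Col6a6, Col7a1, Col8a1, Col8a2, Col17a1 and Col28a1. Col8a2 had 0.190 and 0.0386 CPM against 9.24 and 3.53 CPM (log2 fold change -5.70), and Col28a1 had 3.20 and 11.6 CPM against 29.5 and 223 CPM (log2 fold change -4.06). Col17a1 was at 0 counts in both Emcn+ libraries and at 16 counts in the Emcn- libraries, at least 6.17-fold higher. Col6a6 had 1 count in Emcn+ and 218 in Emcn-, of which 211 were in replicate 2, a ratio of 252 with a counting interval of 44.8 to 10008.5.

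In the same comparison all 8 endothelial markers were called higher in P0 Emcn+ and 6 of 7 fibroblast markers lower. Of 8 mural markers 4 were lower and 2 higher (335 to 487 CPM in sum against 183 to 315 CPM). Of 6 chondrocyte markers tested Sox9 and Comp were lower, and the 7 summed to 0.792 to 2.94 CPM against 62.0 to 146 CPM. The Schwann cell marker S100b was lower too. The summed macrophage markers were 449 to 486 CPM in Emcn+ and 184 to 224 CPM in Emcn-. Osteolineage markers summed to 4.47 to 6.69 CPM in Emcn+ and 53.2 to 187 CPM in Emcn-, with 4 of 6 lower. The part of these cell types in the collagen difference was not tested. Of the 24 calls, 18 were made under every alternative setting that tested the gene. Without P0 Emcn+ replicate 1 the calls of Col4a6, Col6a6, Col8a1 and Col28a1 were lost, and without P0 Emcn+ replicate 2 those of Col4a6, Col7a1 and Col15a1. Without P0 Emcn- replicate 1 those of Col4a6, Col8a1 and Col15a1 were lost, and without P0 Emcn- replicate 2 that of Col28a1.

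**Figure D3:**
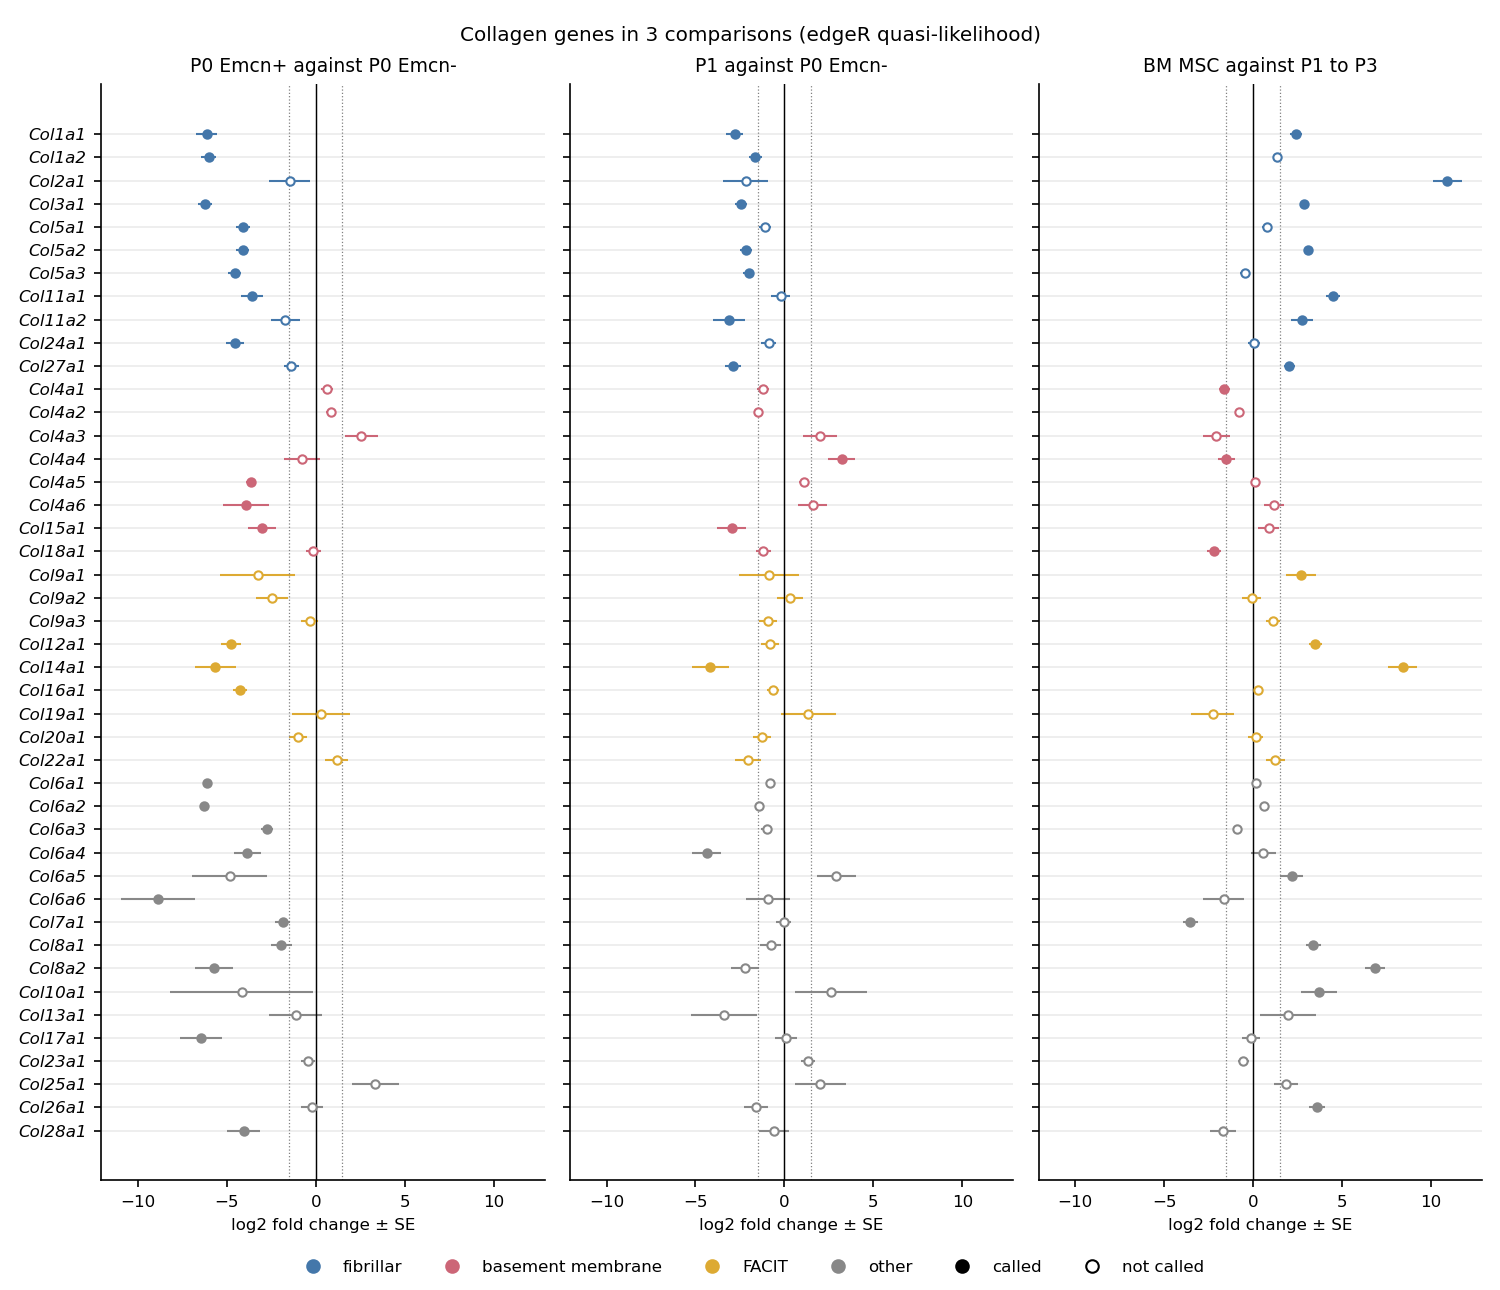
Log2 fold change with its SE (edgeR) for the 44 collagen genes in 3 comparisons, coloured by class, with filled points for called genes and dotted lines at the limits of 1.5. In the left panel no filled point lies to the right of 0, in the middle panel 10 of 11 filled points lie to the left, and in the right panel 15 of 19 lie to the right.

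Genes that build, process and bind collagen were followed as lists of 44 genes outside the collagen rule. Between P0 Emcn+ and P0 Emcn-, 18 of these 44 were called lower and 4 higher, beside 11.4% lower and 7.79% higher of all genes, with a median log2 fold change of -1.18, against -0.06 for all genes. Of 5 crosslinking oxidases 3 were lower, with Loxl1 at 10.8 and 8.12 CPM against 765 and 482 CPM (log2 fold change -6.00) and Lox at 59.2 and 58.5 CPM against 3183 and 2430 CPM (-5.54). Of 8 procollagen processing genes 6 were lower, led by the N-proteinase Adamts2 (-5.66) and the C-proteinase enhancer Pcolce (-5.46).

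Chain-modifying enzymes went both ways. Of 15, 3 were called lower and 2 higher: the prolyl 4-hydroxylase subunit P4ha3 was lower (log2 fold change -4.99) and the galactosyltransferase Colgalt2 higher (4.40). None of 7 chaperone and secretion genes was called (1 at an unadjusted p under 0.05), and Serpinh1, a chaperone of collagen chains, had 727 and 1146 CPM in P0 Emcn+ cells against 1246 and 818 CPM. Of 9 collagen receptors and uptake genes, 6 were lower, led by Itga11 (-5.90) and the uptake receptor Mrc2 (-5.52), and 2 were higher, Itga2 (4.32) and Itga1 (2.26), whose products are integrin subunits that bind collagen.

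The comparison of Lung with P0 Emcn- asked how cells sorted as Emcn- from 2 organs differ. Emcn itself had 12.7 and 2.52 CPM in P0 Emcn- cells and 32.6 and 125 CPM in Lung (log2 fold change 3.33, adjusted p = 0.184, not called). The P0 Emcn+ libraries had 631 and 798 CPM. Of 44 collagen genes 8 were called, 4 higher and 4 lower in Lung, where 3.83% of all genes were called, 2.13% higher and 1.7% lower. The median log2 fold change was -0.16, against 0 for all genes. The called members were 4 of 8 basement membrane genes, 1 of 11 fibrillar genes, 0 of 9 FACIT genes (0 at an unadjusted p under 0.05) and 3 of 16 others.

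Of the 4 minor type IV chains, which build the networks of lung and kidney membranes, 3 were called higher in Lung, and Col4a3 was not (0.387 and 0.599 CPM against 0.0755 and 0 CPM, log2 fold change 3.08, adjusted p = 0.0875). Col4a5 (chrX:141475385-141689234) had 122 and 149 CPM in Lung and 17.1 and 25.2 CPM in P0 Emcn- cells (log2 fold change 2.75, SE 0.26, adjusted p = 8.33e-04). Its head-to-head neighbour Col4a6 (chrX:141165403-141474076) had 5.96 and 8.11 CPM against 0.453 and 0.101 CPM (log2 fold change 4.45, SE 0.84, adjusted p = 0.0148). Col4a4 had 63 counts in the Lung libraries against 3 in P0 Emcn-, a ratio of 18.0 with a counting interval of 5.88 to 89.6.

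Both Lung libraries exceeded both P0 Emcn- libraries for each of these 3 chains. The membrane collagen Col23a1 was higher as well, with 12 and 5.81 CPM against 2.49 and 2.42 CPM (log2 fold change 1.93, adjusted p = 0.0219). The major chains gave no call, with Col4a1 at 3246 and 4192 CPM in Lung and 5281 and 4237 CPM in P0 Emcn- cells. Col4a2 had 1853 and 2378 CPM in Lung.

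Several other abundant collagens were not called in Lung either, unlike Col18a1 and Col5a3 below. Col1a1 had 2699 and 2565 CPM there, Col1a2 4592 and 4204 CPM and Col3a1 3112 and 4270 CPM. Col6a1 had 1224 and 1537 CPM and Col6a3 1016 and 921 CPM. The FACIT genes Col12a1 and Col16a1 had 412 and 728 CPM and 198 and 216 CPM.

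Lower in Lung were Col5a3, Col6a4, Col8a2 and Col18a1. Col5a3, the least common chain of type V, had 47.7 and 50.2 CPM in Lung against 544 and 615 CPM in P0 Emcn- cells (log2 fold change -3.50, SE 0.36, adjusted p = 9.71e-04), while Col5a1 had 1034 and 1350 CPM against 1241 and 1230 CPM. The ratio of Col5a3 to Col5a1 per kb was therefore 0.0575 and 0.0464 in Lung and 0.547 and 0.624 in P0 Emcn-. Col18a1 had 128 and 191 CPM against 1058 and 919 CPM (log2 fold change -2.57, adjusted p = 0.0105).

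Col8a2, a chain of the network under corneal and vascular endothelium, had 0.497 and 0.323 CPM in Lung against 9.24 and 3.53 CPM in P0 Emcn- cells (log2 fold change -3.89, SE 0.89, adjusted p = 0.0334). Its partner Col8a1 had 424 and 528 CPM against 115 and 75.5 CPM and was not called (log2 fold change 2.38, adjusted p = 0.0522). Col8a1 was called higher in Lung by edgeR with no filter on low counts (adjusted p = 0.011) and by DESeq2's Wald test (adjusted p = 6.42e-04). Col6a4 had 0.249 and 0.277 CPM against 2.22 and 3.23 CPM (log2 fold change -3.28, SE 0.74, adjusted p = 0.0309). The groups did not overlap for any of these genes.

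Of the 8 calls, Col5a3 and Col4a5 were made under every setting. Some settings called genes outside these 8. With no filter on low counts and with DESeq2, Col8a1 and Col11a1 were called higher in Lung and Col2a1 lower. Col11a1 had 207 and 281 CPM in Lung against 40.4 and 83.6 CPM, and Col2a1 had 0.0552 and 0 CPM against 0.705 and 4.84 CPM. The replicate block also called Col2a1, and the adjusted p alone called Col6a2 lower. Leaving out P0 Emcn- replicate 1 left 4 calls and lost those of Col4a4, Col4a6, Col6a4, Col8a2 and Col23a1. Leaving out Lung replicate 1 left 4 calls and lost those of Col6a4, Col8a2, Col18a1 and Col23a1. Col4a6, Col6a4 and Col23a1 were also lost without P0 Emcn- replicate 2, and Col6a4 and Col8a2 without Lung replicate 2. Endothelial markers summed to 145 and 554 CPM in Lung against 67.1 to 251 CPM in P0 Emcn- cells, with 0 of 8 called higher and 1, Tek, called lower (log2 fold change -2.32). All 6 macrophage markers were lower in Lung (15.8 to 17.4 CPM in sum against 184 to 224 CPM). Osteolineage markers summed to 30.2 to 34.9 CPM in Lung against 53.2 to 187 CPM, and called lower in Lung were also the mural markers Cspg4 and Notch3, the osteolineage markers Ibsp and Dmp1, the chondrocyte marker Comp and the Schwann cell marker S100b, while the epithelial marker Krt18 was higher. The part of these markers' cells in the result was not tested. Of the 44 genes that build and bind collagen 3 were called, or 6.8% against 3.83% of all genes, the metalloproteinase Tll1 (log2 fold change 4.53) and Loxl4 (1.73) higher and Itga11 (-3.58) lower.

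P1 against P0 Emcn- showed the collagens of the Emcn- cells after the first passage. Of 44 genes 11 were called, 10 lower and 1 higher at P1, where 8.84% of all genes were called, 3.07% lower and 5.77% higher. The median log2 fold change was -0.97, against 0.02 for all genes. Fibrillar genes made up 7 of the 10 lower calls, and all 11 fibrillar genes had a negative log2 fold change. These libraries share no batch with P0, so passage and batch cannot be told apart.

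Col1a1 had 469 and 647 CPM at P1 against 5783 and 2891 CPM at P0 Emcn- (log2 fold change -2.81, SE 0.50, adjusted p = 0.00523). Col3a1 had 736 and 755 CPM against 4937 and 4005 CPM (log2 fold change -2.43, SE 0.33, adjusted p = 0.00118). Col1a2 had 1468 and 1968 CPM against 7053 and 4779 CPM, a smaller difference with a log2 fold change of -1.63 (SE 0.35, adjusted p = 0.0135). Its call was lost without P1 replicate 1, P1 replicate 2 or P0 Emcn- replicate 1. The log2 fold change of Col1a2 stayed between -1.91 and -1.33 over the settings. No P1 library reached the level of a P0 Emcn- library for any of these 3 genes.

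The partners of type I therefore stood in another ratio after passage. Per kb of exon, Col1a1 to Col1a2 was 1.55 and 1.15 in P0 Emcn-, 1.11 and 1.16 in Lung, and 0.573 to 0.731 in the 7 passaged libraries. In BM MSC it was 1.53 and 0.953, and in P0 Emcn+ 1.20 and 1.37. The passaged libraries did not overlap with the other 8. For type V the ratio of Col5a1 to Col5a2 went the other way, at 0.951 and 1.33 in P0 Emcn- and 2.19 to 3.14 in the passaged libraries.

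The other fibrillar genes called lower at P1 were Col5a2 (log2 fold change -2.14), Col5a3 (-2.02), Col11a2 (-3.14) and Col27a1 (-2.90). Col11a2, a chain of cartilage fibres, had 0.595 and 1.29 CPM against 3.47 and 15.2 CPM (SE 0.89, adjusted p = 0.0390). The FACIT Col14a1 had 0.922 and 3.12 CPM against 63.7 and 14.6 CPM (log2 fold change -4.16, SE 1.06, adjusted p = 0.0253). Outside these classes Col6a4 was lower, at 0.149 and 0.0717 CPM against 2.22 and 3.23 CPM (log2 fold change -4.37, SE 0.80, adjusted p = 0.00606).

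Of basement membrane genes, Col15a1 was lower, with 26.7 and 18.7 CPM against 263 and 135 CPM (log2 fold change -2.97, adjusted p = 0.0310). Col4a4 was the 1 gene called higher, with 34 counts at P1 against 3 at P0 Emcn-, a ratio of 9.15 with a counting interval of 2.88 to 46.5. Col4a1 had 1858 and 1830 CPM at P1 against 5281 and 4237 CPM, and Col4a2 783 and 820 CPM against 2865 and 2075 CPM. Both passed the adjusted p alone but not the limit on the fold change (log2 fold changes -1.21, adjusted p = 0.0332, and -1.47, adjusted p = 0.00654). The same held for the type VI chains Col6a1 (1028 and 972 CPM, -0.80, adjusted p = 0.0150) and Col6a2 (473 and 419 CPM, -1.44, adjusted p = 0.00135).

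Leaving out P1 replicate 1 left 6 calls, and those of Col1a1, Col1a2, Col4a4, Col11a2, Col14a1 and Col15a1 were lost. Leaving out P1 replicate 2 left 5, and those of Col1a2, Col4a4, Col6a4, Col11a2, Col14a1 and Col15a1 were lost. Without P0 Emcn- replicate 1 the calls of Col1a2, Col4a4, Col14a1 and Col15a1 were lost, and without P0 Emcn- replicate 2 there were 15 calls but that of Col11a2 was lost, and Col6a6, whose log2 fold change was -0.92 with all libraries, was called higher at 4.91. With the replicate number as a block, 3 genes were called higher, Col4a4 with Col6a5 and Col10a1, and 10 lower. Of the 44 genes that build and bind collagen 4 were called, or 9.1%, beside 8.84% of all genes. All 4 were lower, where 3.07% of all genes were called lower and 5.77% higher. They were Itga11 (log2 fold change -3.88), Loxl1 (-2.25), Serpinh1 (-1.64) and the transcription factor Creb3l1 (-1.58). The median log2 fold change of the 44 was -0.61, against 0.02 for all genes. By edgeR 24 of them had an unadjusted p under 0.05. Summed fibroblast markers were 3676 to 3734 CPM at P1 and 3933 to 4871 CPM at P0 Emcn-, and 0 of 7 were called by edgeR. Osteolineage markers summed to 24.9 to 25.4 CPM at P1 and 53.2 to 187 CPM at P0 Emcn-, with 3 of 6 called lower. Mural markers summed to 76.8 to 77.3 CPM against 183 to 315 CPM, with Acta2 (log2 fold change -2.61) and Notch3 (-1.85) called lower. Endothelial markers summed to 57.6 to 69.0 CPM against 67.1 to 251 CPM, and 1 of 8, Cdh5, was called lower (-5.06). The Schwann cell marker S100b was called higher (1.86). The part of such cells was not tested.

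P3 was compared with P1 for differences with further passage, with 1 library of each in batch b and batch c. No collagen gene was called by edgeR with all 15 libraries and the filter on low counts, where 0.222% of all genes were called, 0.0773% higher and 0.144% lower, and 6 members had an unadjusted p under 0.05. With no filter edgeR called Col12a1, and with only the P1 and P3 libraries Col12a1, Col8a1 and, as lower, Col6a6. DESeq2's Wald test called 2 members, and DESeq2 with ashr shrinkage 1. The median log2 fold change was 0.38, against -0.01 for all genes.

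Col12a1 had the smallest p among the members. In batch b it stood at 197 CPM for P1, 491 for P2, 967 for P3 and 1147 CPM for P4, and in batch c at 246, 536 and 1058 CPM for P1 to P3. P3 exceeded P1 4.91-fold in batch b and 4.31-fold in batch c. The log2 fold change was 2.23 (SE 0.50, adjusted p = 0.103). DESeq2 called it with an adjusted p of 2.12e-04.

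Col8a1, a type VIII chain of vessel walls, had 39.0, 95, 160 and 159 CPM for P1 to P4 in batch b and 61.6, 123 and 244 CPM for P1 to P3 in batch c (P3 against P1 log2 fold change 2.04, SE 0.60, adjusted p = 0.183). It was the second gene called by DESeq2's Wald test (adjusted p = 0.0106). The other members with an unadjusted p under 0.05 were Col7a1 (log2 fold change 1.08) and Col23a1 (1.10), and in the other direction Col14a1 (-3.54) and Col6a5 (-3.29). Col14a1 was at 0.922 and 3.12 CPM at P1 and at 0.0847 and 0.259 CPM at P3, and Col6a5 at 0.863 and 0.861 CPM at P1 and at 0.0282 and 0.148 CPM at P3.

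Read as steps, 14 of 44 members had a higher CPM at P2 than at P1 and at P3 than at P2 in both batches, as did 12.6% of all genes tested. They were 3 fibrillar genes (Col2a1, Col5a1 and Col11a1), 4 basement membrane genes (Col4a1, Col4a2, Col4a3 and Col15a1), 4 FACIT genes (Col9a2, Col12a1, Col16a1 and Col22a1) and 3 others (Col6a2, Col7a1 and Col8a1). A lower CPM at both steps in both batches was seen for 4 members (Col27a1, Col6a5, Col6a6 and Col17a1), as for 16.4% of all genes. This reading was chosen after the levels were seen and carries no test.

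Other abundant genes at P3 were Col3a1 (642 and 455 CPM), Col4a2 (1173 and 939 CPM), Col6a1 (1019.9 and 1075 CPM) and Col16a1 (150 and 179 CPM, against 133 and 144 CPM at P1). Some of the steps were small. Col4a1 had 1858, 1997 and 2602 CPM in batch b and 1830, 1842 and 2011 CPM in batch c for P1 to P3. Col5a1 had 501, 526 and 600 CPM in batch b and 524, 530 and 564 CPM in batch c. Col6a3 was not among the 14, with 954, 996 and 1570 CPM in batch b and 997, 950 and 1376 CPM in batch c, and stood at 1797 CPM in P4. Type I showed no such order, with Col1a1 at 469, 439 and 571 CPM in batch b, 647, 544 and 739 CPM in batch c and 629 CPM in P4. Macrophage markers summed to 66.4 to 218 CPM at P1 and 10.4 to 14.6 CPM at P3, fibroblast markers to 3676 to 3734 CPM and 1938 to 2078 CPM. Mural markers had higher sums at later passages. These were 76.8 to 77.3 CPM at P1, 106 to 117 CPM at P2 and 146 to 159 CPM at P3. By edgeR 0 of the 8 were called (4 at an unadjusted p under 0.05), and the markers did not all rise. Cspg4, Notch3, Acta2 and Des were higher at P3 than at P1 in both batches. Abcc9 was lower, at 5.29 and 5.34 CPM at P1 and 0.959 and 0.592 CPM at P3, as was Kcnj8. Rgs5 and Myh11 were higher in batch b and lower in batch c. The part of such cells in the collagen levels was not tested for any of these lists.

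**Figure D4:**
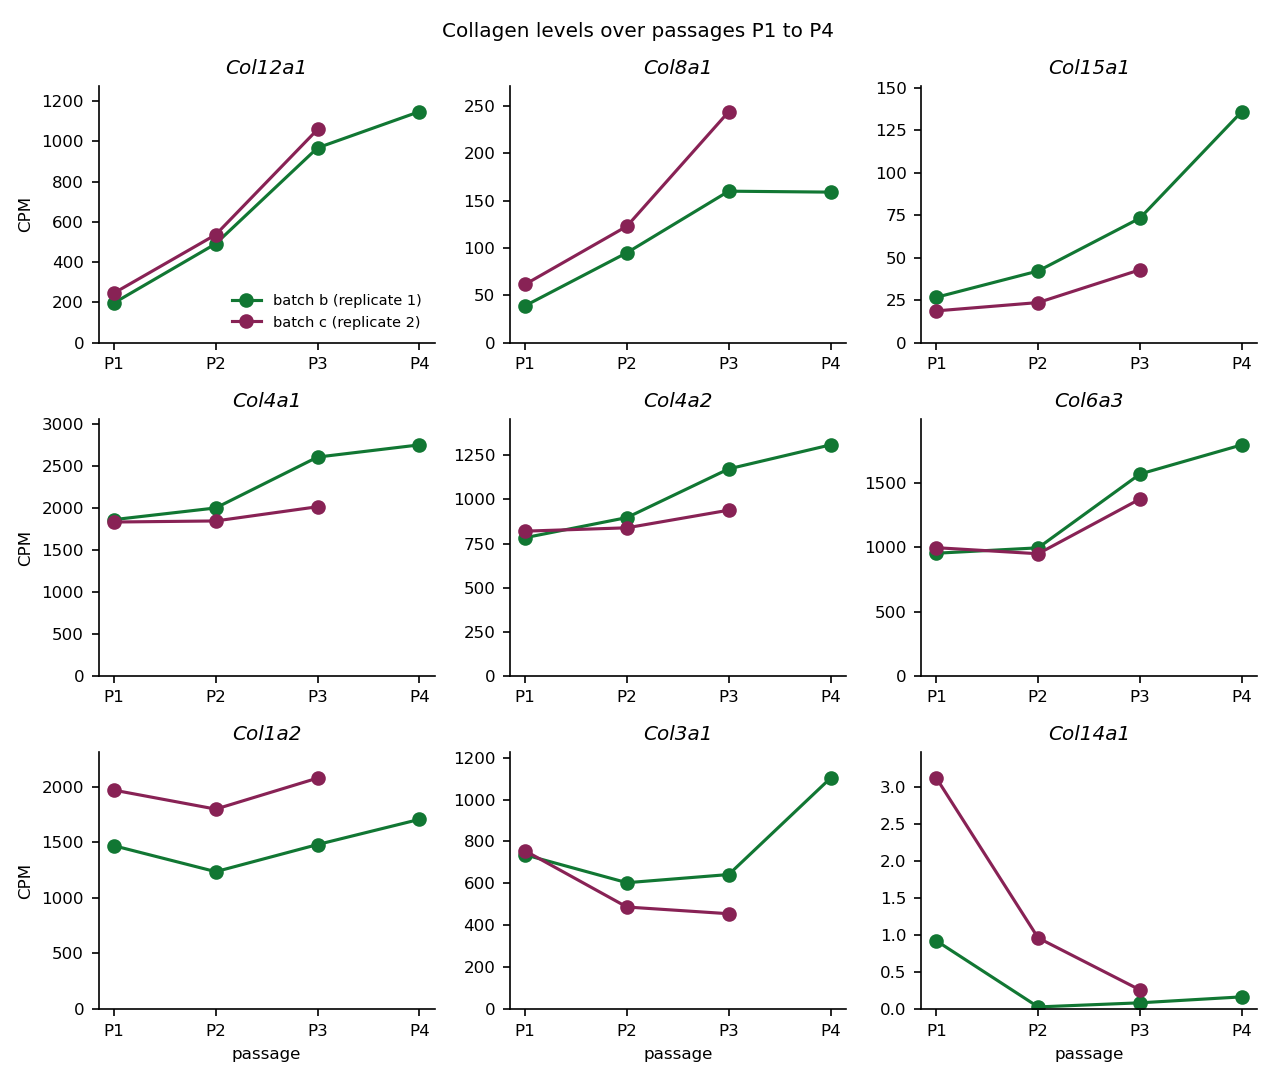
CPM of 9 collagen genes in the P1 to P4 libraries, with a line joining the libraries of each batch; P4 exists in batch b alone. Col12a1 climbs from 197 and 246 CPM to 967 and 1058 CPM at P3 in both batches, while Col1a2 shows a gap between the batches and no steady slope.

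Batch c stood above batch b at each passage for Col1a2, with 1968, 1797 and 2076 CPM in batch c and 1468, 1235 and 1479 CPM in batch b at P1, P2 and P3. Among genes called higher in BM MSC against P1 to P3 the batches differed in either direction, and the examples here were chosen after their values were seen. Col10a1 had 0.861, 0.563 and 4.59 CPM in batch c and 0.0297, 0.0292 and 0.226 CPM in batch b, and Col2a1 had 0.897, 1.62 and 2.48 CPM against 0.0595, 0.146 and 0.762 CPM. Col14a1 had 3.12, 0.961 and 0.259 CPM in batch c and 0.922, 0.0292 and 0.0847 CPM in batch b. Col3a1 had 755, 487 and 455 CPM in batch c and 736, 603 and 642 CPM in batch b, so batch b was the higher from P2 on. The BM MSC libraries are in batch c, and whether these gaps have to do with the shared batch was not tested.

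Both BM MSC comparisons used the same 2 BM MSC libraries. Against P0 Emcn-, 19 of 44 collagen genes were called, 12 higher and 7 lower in BM MSC, where 18.7% of all genes were called, 11.3% higher and 7.45% lower. Against the mean of P1, P2 and P3, 19 were called, 15 higher and 4 lower, where 14.2% of all genes were called, 8.42% higher and 5.81% lower. The study passaged cultures serially, and whether the P1, P2 and P3 libraries of a batch came from the same culture was not given. They were tested as separate libraries, though same-numbered ones deviated together (r of 0.354 to 0.451). The adjusted p of this comparison can therefore be too small. The median log2 fold changes were -0.21 and 0.81, against 0.01 for all genes in each comparison (0.005 and 0.008 before rounding). Against P0 Emcn- batch and condition cannot be told apart, whereas batch c holds BM MSC with P1, P2 and P3 libraries.

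Some collagens known from cartilage were high in BM MSC and others were not. Col2a1 (chr15:97975602-98004695), the main fibrillar chain of cartilage, had 1418 and 2095 CPM in BM MSC and at most 4.84 CPM in the other 13 libraries. Its log2 fold change was 9.66 (SE 1.30, adjusted p = 5.23e-04) against P0 Emcn- and 10.91 (SE 0.82, adjusted p = 2.36e-05) against P1 to P3, and within batch c the ratio was 1054. Col11a1, its fibril partner, had 2631 and 672 CPM in BM MSC, 207 and 281 CPM in Lung and 4.50 to 137 CPM elsewhere (log2 fold changes 4.85 and 4.48).

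Col10a1, the collagen of hypertrophic cartilage, had 8.48 and 10.1 CPM in BM MSC, 0 to 0.101 CPM in the P0 and lung libraries and 0.0275 to 4.59 CPM in the passaged ones. The log2 fold change was 6.96 (SE 1.96, adjusted p = 0.0232) against P0 Emcn- and 3.71 (SE 1.02, adjusted p = 0.0224) against P1 to P3. Within batch c the ratio of BM MSC to the passaged libraries was 4.64. The call against P0 Emcn- was lost whenever 1 of the 4 libraries was left out. Col11a2 had 10.4 and 2.25 CPM in BM MSC, which overlapped with P0 Emcn- at 3.47 and 15.2 CPM (log2 fold change -0.42, not called), and was called against P1 to P3 (2.75). Col9a1, Col9a2 and Col9a3, the FACIT chains on cartilage fibres, stayed at or under 1.21 CPM in BM MSC. Col9a1 had 0.393 and 0.244 CPM there and at most 0.185 CPM in every other library. It was called higher against P1 to P3 (log2 fold change 2.68, adjusted p = 0.0368), a call made under 3 of 12 other settings.

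Markers of cartilage cells were given beside these levels. The 7 chondrocyte markers summed to 856 to 1454.5 CPM in BM MSC. The sums were 62.0 to 146 CPM in P0 Emcn- cells and 93.9 to 150 CPM in P1 to P4. Of the 6 tested, 5 were called higher against P1 to P3 and 3 against P0 Emcn-. Comp made up most of the BM MSC sum, at 1190 and 727 CPM, while Acan was at 1.04 and 0.152 CPM and Matn1 at 0.0281 and 0 CPM. Acan and Cytl1 were at 0 CPM in every P0 Emcn- and P1 to P3 library. A call of either gene could thus only be higher in BM MSC. It shows presence there rather than a measured fold, also where it is among the calls counted above. Osteolineage markers summed to 132 to 214 CPM in BM MSC against 21.9 to 25.5 CPM in P1 to P4, with 4 of 6 called higher against P1 to P3. Their sums overlapped with those of P0 Emcn- cells (53.2 to 187 CPM), against which 2 of 6 were called higher. Mural markers summed to 1033 to 1319 CPM against 76.8 to 183 CPM in P1 to P4 and 183 to 315 CPM in P0 Emcn-. Of these 8, 5 were called higher against P1 to P3 and 2 against P0 Emcn-. All 6 macrophage markers were called lower against P0 Emcn- (17.4 to 30.2 CPM in sum against 184 to 224 CPM) and 3 of 6 against P1 to P3. Of 8 endothelial markers 5 were called higher and 1, Tek, lower against P1 to P3, and Tek was the 1 called, lower, against P0 Emcn-. Of 7 fibroblast markers Lum was called higher (log2 fold changes 4.42 against P0 Emcn- and 4.30 against P1 to P3), and Pdgfra (-1.87 and -1.59) and Dpt (-3.48 and -3.75) were called lower in both. The Schwann cell marker S100b was higher against P0 Emcn- (3.42). The part of such cells in the collagen levels was not tested.

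Of the FACIT genes of fibrous tissue, Col12a1 was called higher in BM MSC in both comparisons, Col14a1 against P1 to P3, and Col16a1 in neither. Col12a1 had 8272 and 3308 CPM in BM MSC, against 12.3 to 1147 CPM in all other libraries (log2 fold change 3.85, adjusted p = 6.47e-04, against P0 Emcn-, and 3.49, adjusted p = 1.12e-04, against P1 to P3). Col14a1 had 72.2 and 325 CPM against 0.0292 to 3.12 CPM in P1 to P3 (log2 fold change 8.41, SE 0.81, adjusted p = 7.87e-05). Its ratio of BM MSC to the passaged libraries within batch c was 137. Against P0 Emcn-, with 63.7 and 14.6 CPM, it was not called (adjusted p = 0.0723). Col16a1 was even across the Emcn- groups, from 133 to 280 CPM, with 194 and 195 CPM in BM MSC.

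The type VIII chains were both called higher in BM MSC in both comparisons. Col8a2 (chr4:126286793-126314330) had 376 and 132 CPM in BM MSC and 0.0386 to 9.24 CPM elsewhere, with log2 fold changes of 5.36 (SE 0.81, adjusted p = 9.54e-04) and 6.84 (SE 0.54, adjusted p = 2.97e-05). Col8a1 had 1571 and 702 CPM in BM MSC and 9.32 to 528 CPM elsewhere (log2 fold changes 3.68 and 3.38). Per kb the ratio of Col8a1 to Col8a2 was 2.39 and 3.05 in BM MSC, and 7.11 to 937 in the other 13 libraries.

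Of the 11 fibrillar genes 7 were called higher in BM MSC than in the passaged cells and 0 lower: Col1a1, Col3a1, Col5a2 and Col27a1 as well as Col2a1, Col11a1 and Col11a2. Not called were Col1a2 (5879 and 3176 CPM, log2 fold change 1.36), Col5a1 (1139 and 799 CPM, 0.76), Col5a3 (-0.46) and Col24a1. Col3a1 had 5471 and 3824 CPM in BM MSC and 455 to 755 CPM in P1 to P3 (log2 fold change 2.85, SE 0.23, adjusted p = 3.42e-05). Col1a1 had 4752 and 1599 CPM against 439 to 739 CPM (log2 fold change 2.42, SE 0.35, adjusted p = 7.05e-04), and Col5a2 had 2765 and 1505 CPM against 190 to 267 CPM (log2 fold change 3.11). Against P0 Emcn-, only Col2a1 and Col11a1 of the fibrillar genes were called higher and Col5a3 lower, and Col1a1, Col1a2 and Col3a1 overlapped between the groups.

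The main basement membrane genes were low in BM MSC. Col4a1 had 452 and 957 CPM in BM MSC and 1830 to 7766 CPM in the other 13 libraries, with log2 fold changes of -2.67 (SE 0.35, adjusted p = 4.15e-04) against P0 Emcn- and -1.62 (SE 0.295, adjusted p = 0.00259) against P1 to P3. Col4a2 had 435 and 703 CPM and was called against P0 Emcn- alone (log2 fold change -2.03, adjusted p = 5.53e-04). Col18a1 had 36.1 and 116 CPM in BM MSC and 128 to 1058 CPM elsewhere (log2 fold changes -3.62, adjusted p = 4.13e-04, and -2.20, adjusted p = 0.00252). Of the minor type IV chains, Col4a6 (1.99 and 2.40 CPM in BM MSC, log2 fold change 2.80) and Col4a4 (0.421 and 0.244 CPM, 2.42) were called higher against P0 Emcn-. Against P1 to P3 Col4a4 was called lower (-1.51) and Col4a6 was not called (1.16). Col4a3 and Col4a5 were called in neither comparison.

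In the class of others, Col7a1, the anchoring fibril collagen, had 0.954 and 1.37 CPM in BM MSC against 10.7 and 9.28 CPM in P0 Emcn- cells and 7.07 to 20.2 CPM in P1 to P3 (log2 fold changes -3.02, adjusted p = 9.48e-04, and -3.54, adjusted p = 2.81e-04). Col6a4 had 0.112 and 0.183 CPM in BM MSC against 2.22 and 3.23 CPM in P0 Emcn- cells (log2 fold change -4.07, SE 0.77, adjusted p = 0.00313). Col6a1 stood at 1235 and 1240 CPM and Col6a2 at 826 and 808 CPM in BM MSC, and neither was called in either comparison. Col6a3 was called lower against P0 Emcn- (695 and 599 CPM, log2 fold change -1.66, adjusted p = 0.00381), and without P0 Emcn- replicate 1 its log2 fold change was -0.94.

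**Figure D5:**
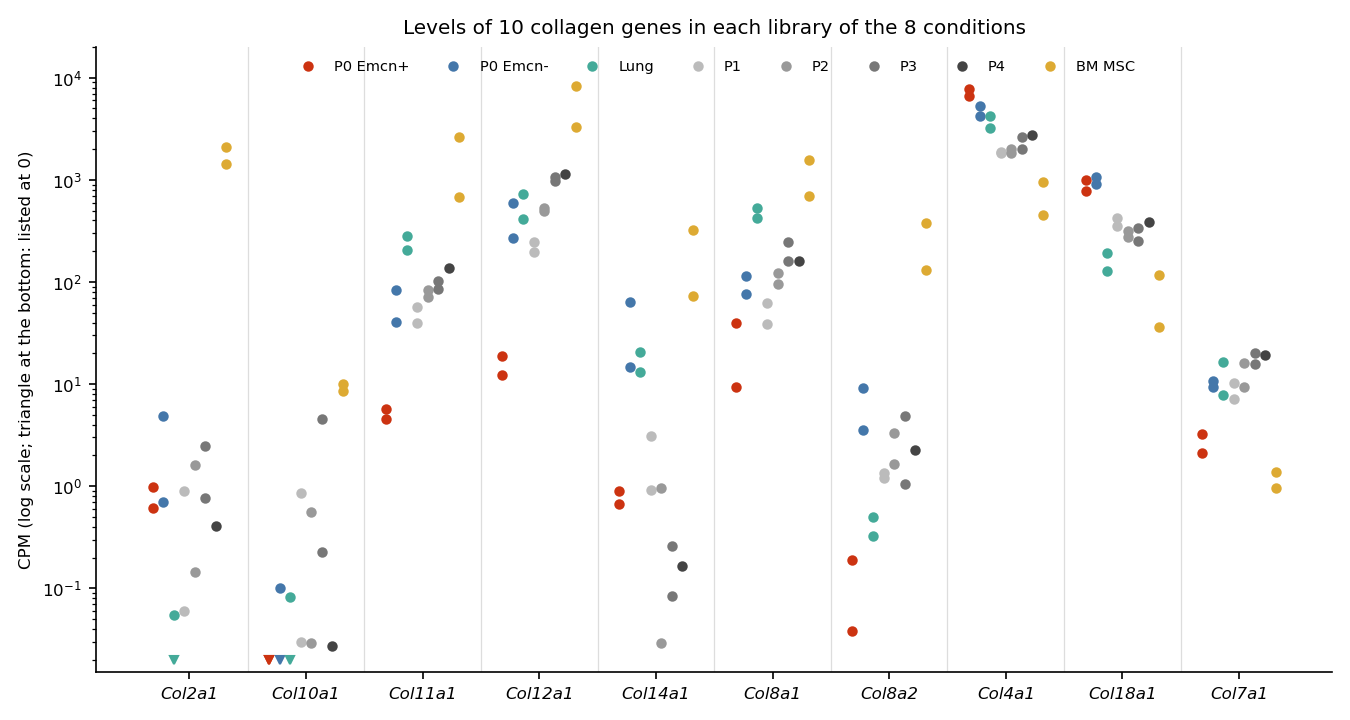
CPM on a log scale of 10 collagen genes in each library, coloured by condition, with triangles at the bottom for libraries listed at 0. The 2 BM MSC points of Col2a1 (1418 and 2095 CPM) stand clear of all others, and those of Col4a1, Col18a1 and Col7a1 lie below every other library.

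The 2 BM MSC libraries differed from each other in several of these genes. Replicate 1 exceeded replicate 2 for Col1a1, Col11a1, Col12a1, Col8a1 and Col8a2, and replicate 2 exceeded replicate 1 for Col2a1, Col4a1, Col14a1, Col15a1 and Col18a1. The endothelial marker sum was 39.0 CPM in the lower and 340 CPM in the higher of the 2 libraries, and Cdh5 was at 7.86 CPM in replicate 1 and at 156 CPM in replicate 2. Its part in these gaps was not tested. Without BM MSC replicate 1, 11 genes were called against P1 to P3, and among those lost were Col1a1 (log2 fold change 1.39), Col4a1 (-1.19), Col10a1, Col11a2 and Col27a1. The Col10a1 call against P1 to P3 was also lost without BM MSC replicate 2. The calls of Col9a1, Col4a4 and Col6a5 against P1 to P3 were lost without any of several libraries, passaged ones included. Of the 19 calls in each comparison, 11 were made under every setting that tested the gene. Against P0 Emcn-, the calls lost without 1 library were those of Col4a4, Col4a6, Col6a3, Col6a5, Col10a1, Col23a1, Col25a1 and Col26a1.

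Of the 44 genes that build and bind collagen, 7 were called higher and 4 lower in BM MSC against P0 Emcn-, and 12 higher and 2 lower against P1 to P3, or 25.0% and 31.8% of them against 18.7% and 14.2% of all genes. The lysyl hydroxylase Plod2 was higher in both, at 386 and 480 CPM in BM MSC (log2 fold changes 1.96 and 2.21), as was P4ha3 (1.82 and 2.65). Of the crosslinking oxidases, Loxl1 (-2.65) and Loxl2 (-1.74) were called lower against P0 Emcn-, where Lox was not called (1.24, adjusted p = 0.00197). Lox had 6753 and 5646 CPM in BM MSC against 1282 to 1472 CPM in P1 to P3 (log2 fold change 2.09), and Serpinh1 (1.76), Creb3l1 (1.65) and Fkbp14 (1.56) were the 3 chaperone and secretion genes called. Among receptors, Itga11 had 322 and 352 CPM in BM MSC against 1.66 to 6.84 CPM in P1 to P3 (log2 fold change 6.49), and Itga2 was next (3.96). Processing genes were split, with Adamts14 lower in both comparisons (-3.83 and -2.91), Bmp1 lower (-1.93) and Tll1 higher against P0 Emcn- (3.12).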

How the data were processed

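RNA-seq libraries of 15 samples were analysed. Trimmed reads were aligned by the authors with STAR (GRCm38), run through nf-core RNASeq, and transcripts of Ensembl were quantified with Salmon, which tximport summed to genes. The deposited values are whole-number counts of 44674 genes, and how estimates became whole numbers is not given in the sources used here. No column was left out.

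CPM are counts scaled to a library total of 1000000, without TMM factors. Tests used R 4.3.3 and edgeR 4.0.16 (TMM, filterByExpr with minimum count 10 and minimum total 15, quasi-likelihood test, 1 coefficient per condition, all 15 libraries, 7 residual degrees of freedom), with Benjamini-Hochberg adjustment over 19401 genes. The SE is the absolute log2 fold change divided by the square root of F. The code was tested on simulated data. Alternatives used DESeq2 1.42.0, ashr 2.2.63, other filters, factors and samples. Positions and lengths are from GENCODE M21, promoters from RefSeq GRCm38.p6.

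Values in the libraries compared are given for the 2 genes of highest mean CPM in each class (4 for fibrillar) and, per comparison, for the 3 called genes furthest from 0 in log2 fold change, higher and lower apart, that reach 1 CPM or more in each library where they are higher. Other genes were named after their values were seen. The members, classes, gene lists, tests and alternatives were chosen with earlier results of these data known.

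Same-numbered libraries share a batch by the labels among P0 and lung libraries and among those of P1 to P3, and their deviations from the group means correlated (r of 0.139 to 0.209 and of 0.354 to 0.451), so a replicate block was fitted as an alternative. Replicates differed by more than counting noise in each condition with 2 libraries (chi-square divided by its degrees of freedom, 42.48 to 140.5). Limits and intervals cover counting error only, and a group total of 3 counts stands for 0.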

Additional observations from a re-analysis of the deposited data

How the results depend on the processing

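The counts of called collagen genes were recomputed under 8 other settings and without each library. With P0 Emcn+ against P0 Emcn-, 24 genes were called, and 22 to 24 with 1 library left out. For Lung against P0 Emcn- the count of 8 went to 2 when only the groups compared were fitted, and leave-one-out gave 4 to 8. For P1 against P0 Emcn- the count of 11 went to 17 with adjusted p alone and to 7 with only the groups compared, and leave-one-out gave 5 to 15. For BM MSC against P0 Emcn- leave-one-out gave 14 to 18, and for BM MSC against P1 to P3 it gave 11 to 18. For P3 against P1 the count of 0 became 1 with no filter, 3 with only the groups compared, 2 with DESeq2's Wald test and 1 with DESeq2 and ashr, and stayed at 0 with each library left out. The adjusted p of Col12a1 there was 0.0234 with no filter and 0.0395 with only the groups compared. The cause of these shifts was not tested, and the settings that leave some libraries out also rest on fewer of them. With the replicate block the 6 counts were 26, 9, 13, 17, 0 and 20, none over 1.5 times away from the counts without it. Both BM MSC libraries are in batch c, so in their comparisons (17 and 20) the block pairs them by number and not by batch. No log2 fold change that was called with all libraries changed sign. That of Col6a6, which was not called for P1, Lung or BM MSC against P0 Emcn-, did without P0 Emcn- replicate 2. It went from -0.92 to 4.91 for P1, from -3.05 to 2.79 for Lung and from -3.51 to 2.32 for BM MSC. The sign of small changes that were not called is not settled. Col3a1 had 0.153 in BM MSC against P0 Emcn-. Its BM MSC replicate 2, at 3824 CPM, lay below both P0 Emcn- libraries (4937 and 4005 CPM). Of 311 log2 fold changes under other settings 297 stayed on their side of the limits, as did 192 of 220 with a library left out.

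The 2 libraries of a group, P4 with 1, limit every statement here, and calls in genes under 1 CPM rest on few counts.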
